A study of Mus musculus with 3 samples.

Results

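The immediate early transcription factors are described here through 10 mouse genes, Fos, Fosb, Jun, Junb, Jund, Atf3, Egr1, Nr4a1, Klf6 and Ier2, out of 29625 genes listed in the deposited tables. They were taken by symbol, with earlier results of these data known, and all 10 were listed in all 3 libraries. Their levels were read in nuclei of epididymal fat from male C57BL/6J mice, bought at 5 weeks of age and acclimatised for 1 week. The Ctrl animals were kept on the ordinary diet, whereas those of Mid_Ob and Ob were fed a 60% fat diet. Body weight stood over 10% above the control mean in Mid_Ob and over 20% above it in Ob. The fat of 8 mice was pooled, and nuclei of the pool gave 1 library per stage (10x Genomics), so no test between stages was possible, and intervals below cover counting error only.

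Immediate early genes are switched on within minutes by growth factors, stress, calcium or cAMP, from factors already present in the nucleus, and their transcripts are short-lived. The FOS and JUN proteins pair to form AP-1, a factor that binds the TGACTCA element, and ATF3 can pair with JUN. EGR1 and KLF6 are zinc finger factors, NR4A1 is an orphan nuclear receptor, and IER2 is a small nuclear protein of the same early response. These genes also respond to the handling of tissue before nuclei are isolated, which was not measured here.

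Promoter sequence is shown for 4 genes with a wide spread between clusters of nuclei, to show which elements of early-response genes lie before their starts. Egr1 had a wider spread than Nr4a1, but it lies on a chromosome whose sequence is not printed. RefSeq promoters of GRCm38.p6, running 250 bases before to 50 bases after each start, were found for 8 of the 10 genes. Those printed for Atf3 and Nr4a1 lie inside the genes as annotated in GENCODE M21, which begin at 191218039 and 101254269. Other starts of a gene were not covered, so the motif results hold for these windows only. Ier2 had no entry and no window of Egr1 is shown, so the motif results should not be read as covering either gene. The last 150 bases before the start are printed, 5′ to 3′ on the strand of the gene, and capitals mark the TATA box TATAAA and the element TGACG, which reads as CGTCA where it lies on the other strand.
Fos, chr12:85473740-85473889, plus strand: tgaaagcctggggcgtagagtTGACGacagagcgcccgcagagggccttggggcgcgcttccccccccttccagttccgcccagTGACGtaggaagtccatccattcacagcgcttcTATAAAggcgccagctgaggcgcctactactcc
Fosb, chr7:19310046-19310195, minus strand: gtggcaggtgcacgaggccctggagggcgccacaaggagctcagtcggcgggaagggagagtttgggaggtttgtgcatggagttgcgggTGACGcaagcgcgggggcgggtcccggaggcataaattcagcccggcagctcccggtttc
Atf3, chr1:191183334-191183483, minus strand: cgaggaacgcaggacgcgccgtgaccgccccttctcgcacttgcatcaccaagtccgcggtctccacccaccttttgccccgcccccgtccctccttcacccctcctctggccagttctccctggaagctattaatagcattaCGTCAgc
Nr4a1, chr15:101266696-101266845, plus strand: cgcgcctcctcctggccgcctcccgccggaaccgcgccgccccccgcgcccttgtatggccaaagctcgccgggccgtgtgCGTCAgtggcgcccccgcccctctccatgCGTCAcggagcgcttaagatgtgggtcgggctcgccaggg
Motifs were searched on both strands of the whole windows of 8 genes. TATAAA was found in Fos, at -33 to -28, and in Junb at 0 to 5, which is not before the start. It was found in 13.6% of all 32851 promoters. TGACG, a half-site of the cAMP response element, was found in Fos, Fosb, Atf3, Nr4a1 and Junb, and in 20.8% of all promoters. This shorter element was added to the search after the sequences had been seen. Fos held TGACG at -129 to -125 and at -66 to -62, and Nr4a1 held 4 copies, of which those at -69 to -65 and -40 to -36 are printed. Neither the full cAMP response element TGACGTCA (1.79% of all promoters), the AP-1 element, read as TGACTCA or its reverse complement TGAGTCA (5.20%), nor the CArG box of serum response factor (1.63%) was found in the windows of these 8 genes.

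Levels are counts-per-million (CPM) of UMIs, single transcript molecules, relative to all UMIs of a library or a group of clusters. Ctrl had a depth of 53980929 UMIs, Mid_Ob of 57665213 and Ob of 111595518, of which the 10 genes made up 9920, 12127 and 55086. The nuclei had been grouped within each library, into 14, 11 and 21 clusters, which were named here from marker genes with the ending "-like". Ctrl held germ cell-like (26.3% of UMIs) and testis somatic-like clusters (15.4%), and Mid_Ob held epididymal epithelium-like clusters (30.3%), so whole libraries differed in make-up as well as in stage. UMIs of mitochondrially encoded genes made up 0.220%, 0.343% and 0.472% in Ctrl, Mid_Ob and Ob, and a list of red blood cell genes stood at 56.4, 46.5 and 559 CPM. The sum of 11 heat shock genes, which respond to protein damage, stood at 397, 361 and 398 CPM. The part of make-up and free RNA in the ratios below was not tested, and in a whole library fewer cells of a type and less RNA per cell cannot be told apart. A gene was called higher or lower when its ratio passed 1.5-fold with at least 50 UMIs in the pair.

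In whole libraries, 8 of the 10 genes were higher in Ob than in Ctrl and none was lower, where 18.1% of 22268 genes were higher and 43.5% lower. The median log2 ratio of the 10 genes was 1.89, against -0.35 over all genes. Of Mid_Ob against Ctrl, 5 genes were higher (17.3% of 22208 genes) and 1 was lower (35.5%), and of Ob against Mid_Ob, 6 were higher (17.5% of 19814 genes) and 1 lower (27.3%). The medians of these comparisons were 0.61 against -0.16 and 0.95 against -0.09 on the log2 scale, and the ratios are printed without removing the shift of all genes.

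**Figure D1:**
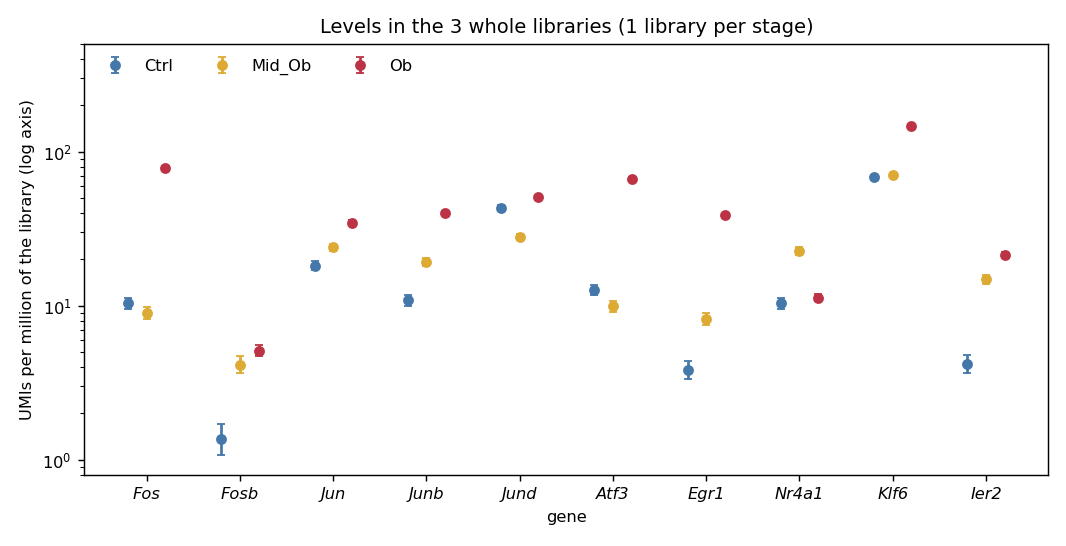
Level of each gene in the 3 whole libraries, in CPM on a log axis, with exact Poisson 95% intervals that cover counting error only; each point is 1 library. Fos stands at 10.4 in Ctrl, 9.0 in Mid_Ob and 78.7 in Ob, while Nr4a1 is highest in Mid_Ob at 22.6.

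The genes followed 3 courses over the stages. Fos, which encodes the namesake of the FOS family, stood at 10.4, 9.0 and 78.7 CPM in Ctrl, Mid_Ob and Ob, a ratio of 8.74 (8.0 to 9.57) for Ob over Mid_Ob. Atf3, a stress-induced factor, took the same course with 12.7, 9.94 and 66.4 CPM, and Ob over Mid_Ob was 6.69 (6.14 to 7.29). Klf6, a zinc finger factor, stood at 68.7, 70.3 and 146 CPM, with 2.08 (2.01 to 2.15) for Ob over Mid_Ob. For these 3 genes the earlier step stayed within 1.5-fold in whole libraries, and nearly the whole difference lay between Mid_Ob and Ob. When testis and epididymis clusters were left out, the log2 ratio of Ob to Mid_Ob was 2.82 for Fos, 2.42 for Atf3 and 0.75 for Klf6. The log2 ratio of Ob to Ctrl was then smaller, at 2.28, 1.75 and 0.53. Each of these genes thus stood below its Ctrl level in Mid_Ob, so the flat earlier step depended on the clusters included.

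A second group stood higher in Mid_Ob than in Ctrl and higher again in Ob, though not each step passed 1.5-fold. Egr1 stood at 3.83, 8.19 and 39.1 CPM, with 2.13 (1.81 to 2.53) for Mid_Ob over Ctrl and 4.78 (4.34 to 5.27) for Ob over Mid_Ob. Junb, a JUN family partner, stood at 10.9, 19.2 and 40.2 CPM, and Ob over Ctrl was 3.71 (3.40 to 4.05). Ier2 stood at 4.19, 14.9 and 21.5 CPM, and here the earlier step was the wider one, at 3.55 (3.06 to 4.13). Without testis and epididymis clusters, its log2 ratio was 1.03 for Mid_Ob over Ctrl and 2.04 for Ob over Ctrl. Both steps were then of like size. Fosb, a second FOS family gene, stood at 1.37, 4.14 and 5.10 CPM, and Jun at 18.2, 24.0 and 34.7 CPM. Jun passed 1.5-fold only over both steps together, at 1.90 (1.78 to 2.04), and Fosb only where Ctrl was the base. Fosb, without testis and epididymis clusters, had log2 ratios of 1.86 for Mid_Ob over Ctrl and 1.80 for Ob over Ctrl. It was then not higher in Ob than in Mid_Ob.

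Nr4a1 and Jund took neither of these courses. Nr4a1 stood at 10.4, 22.6 and 11.3 CPM, so that Mid_Ob was 2.17 (1.97 to 2.40) times Ctrl and Ob was 0.501 (0.464 to 0.542) times Mid_Ob. Jund, a JUN family member with a broad basal level, stood at 43.1, 28.0 and 50.6 CPM, lower in Mid_Ob than in Ctrl at 0.650 (0.610 to 0.693). The Jund difference came under 1.5-fold when scaled by the median gene ratio or with equal weight for clusters. Both genes ended within 1.5-fold of Ctrl, at 1.09 (0.986 to 1.21) for Nr4a1 and 1.17 (1.12 to 1.23) for Jund. Leaving out testis and epididymis clusters, the log2 ratio of Nr4a1 was 0.65 for Mid_Ob over Ctrl and -0.73 for Ob over Mid_Ob. Junb for Mid_Ob over Ctrl (0.35), and Jun (0.52) and Klf6 (0.53) for Ob over Ctrl, then came under 1.5-fold.

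Single clusters showed how wide the Fos difference ran. The lowest of the 21 Ob clusters, adipocyte-like cluster 4, held 27.6 CPM of Fos, a level reached by 2 of 11 clusters in Mid_Ob and 1 of 14 in Ctrl. The median cluster held 7.43 CPM in Ctrl, 6.88 in Mid_Ob and 81.4 in Ob. Egr1 lay above its highest Ctrl cluster (11.2 CPM) in 20 of 21 Ob clusters, and Ier2 above its highest (12.5 CPM) in 19. These Ctrl levels rest on 13 UMIs for Egr1 (5.94 to 19.1 CPM) and 8 for Ier2 (5.42 to 24.7 CPM). For Jund and Nr4a1 no Ob cluster exceeded the highest Ctrl cluster, which was germ cell-like for both (259 and 82.3 CPM). The next Ctrl clusters held 136 CPM of Jund and 23.6 CPM of Nr4a1, below the highest Ob clusters at 235 and 56.8 CPM. Clusters of 1 library share its handling and its free RNA, whose level the tables do not hold.

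**Figure D2:**
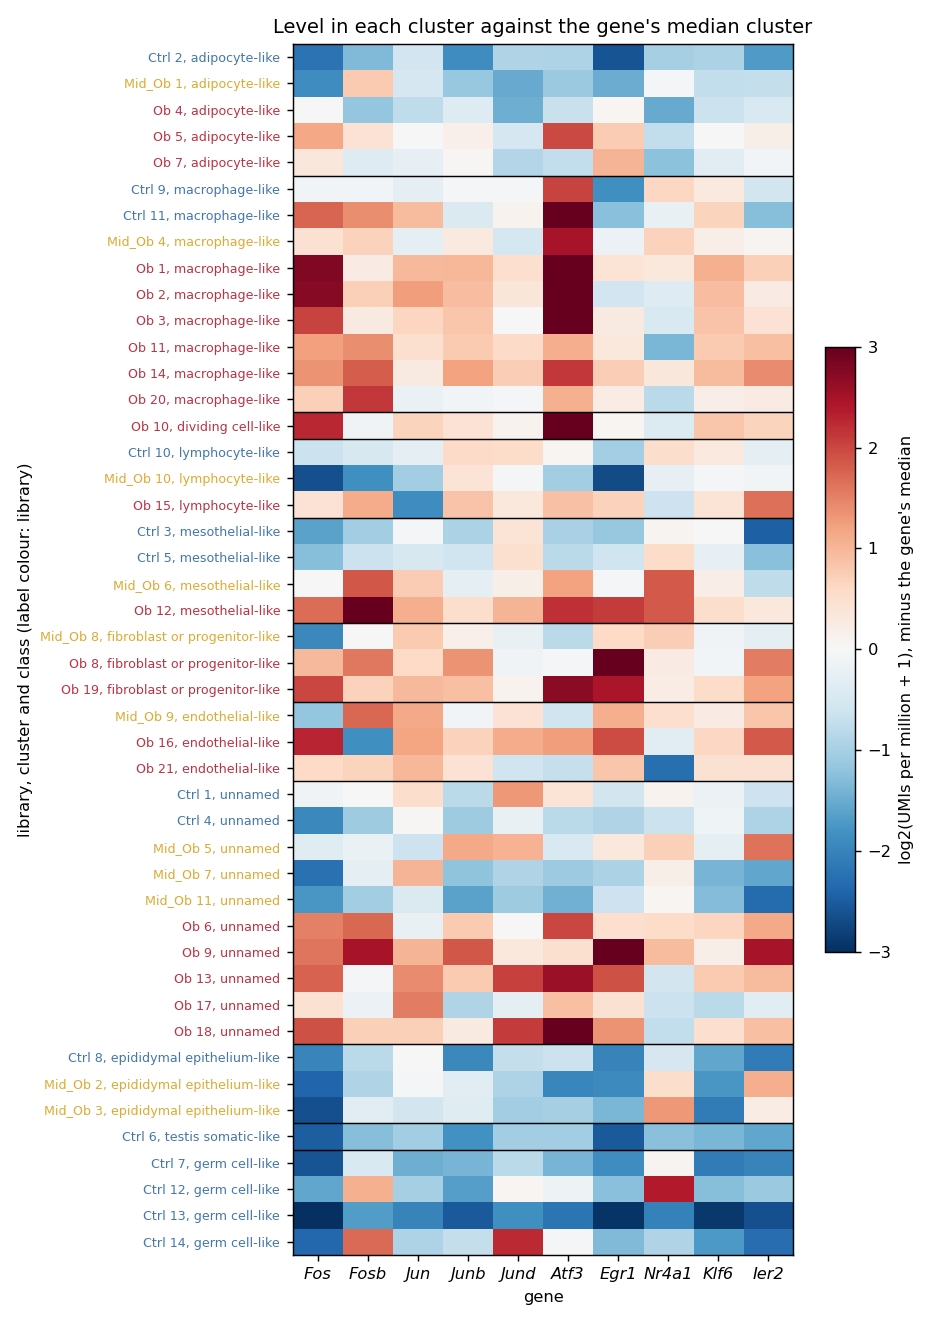
Level of each gene in all 46 clusters, as log2(CPM + 1) minus the median of that gene over the clusters (colours end at -3 and 3), with clusters grouped by class and library names coloured. Fos is above its median in nearly all Ob clusters, Atf3 is highest in macrophage-like clusters, Egr1 in the stromal clusters 8, 9 and 19 of Ob, and Fosb in the mesothelial-like cluster 12 of Ob.

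Within adipocyte-like clusters, 7 of 10 genes were higher in Ob than in Ctrl and none was lower, where 18.8% of 17826 genes were higher and 27.6% lower. Of Mid_Ob against Ctrl, 5 were higher (15.3% of 17042 genes) and 1 lower (20.2%), and of Ob against Mid_Ob, 6 were higher (15.3% of 17738 genes) and 2 lower (19%). The median log2 ratio for Ob over Ctrl was 1.96, against -0.12 over all genes. Malat1, an abundant nuclear RNA, stood at 32047, 51214 and 60380.1 CPM in Ctrl, Mid_Ob and Ob, and the red blood cell list at 36.9, 33.2 and 263 CPM. The part of either in these ratios was not tested. The class was cluster 2 in Ctrl, cluster 1 in Mid_Ob and clusters 4, 5 and 7 in Ob. All 16 adipocyte markers were over 2-fold in the clusters of Ctrl and Mid_Ob, and 15, 12 and 14 of them in clusters 4, 5 and 7 of Ob.

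The FOS family split in these nuclei. Fos stood at 5.14, 6.88 and 49.7 CPM in Ctrl, Mid_Ob and Ob, a ratio of 7.21 (6.22 to 8.41) for Ob over Mid_Ob. Fosb stood at 0.440, 5.18 and 2.67 CPM, highest in Mid_Ob at 11.8 (5.27 to 32.6) times Ctrl, a ratio that rests on 6 UMIs in Ctrl. In Ob its level was 0.515 (0.409 to 0.650) times that of Mid_Ob. Of the JUN family, Junb stood at 7.34, 12.7 and 29.4 CPM and was 4.0 (3.27 to 4.94) times as high in Ob as in Ctrl. Jun, at 17.8, 18.8 and 23.2 CPM, stayed within 1.5-fold throughout.

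Egr1, which growth factor and insulin signals induce, stood at 1.98, 5.44 and 26.8 CPM in Ctrl, Mid_Ob and Ob. Its ratio of Ob over Ctrl, 13.5 (9.27 to 20.6), was the largest of the 10 genes in adipocyte-like clusters. Ier2 stood at 3.96, 8.84 and 15 CPM. Nr4a1, which cAMP induces in fat cells, stood at 7.05, 14.4 and 7.18 CPM, and Ob was 0.50 (0.436 to 0.575) times Mid_Ob. Jund was lower in Mid_Ob than in Ctrl, at 18.5 against 28.6 CPM, which scaling by the median gene ratio brought under 1.5-fold, and stood at 31.3 CPM in Ob. Klf6 was higher in Ob than in Ctrl, at 107 against 62.8 CPM, a log2 ratio that came under 1.5-fold (0.42) without cluster 5 of Ob.

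Cluster 5 of Ob, the largest of the library with 36391957 UMIs, also carried macrophage transcripts. The 14 macrophage markers summed to 3099 CPM in it, against 469 and 490.4 in clusters 4 and 7 of Ob, 735 in Mid_Ob and 892 in Ctrl, and no marker was at 0 in any of them. Atf3 stood at 50.2 CPM in cluster 5 and at 7.22 and 6.87 CPM in clusters 4 and 7, which is 7.06 (6.06 to 8.27) times as high. Fosb was 4.11 (2.65 to 6.62) times as high in cluster 5 as in clusters 4 and 7, and Fos 2.13 (1.96 to 2.31) times. The part of macrophage transcripts in these differences was not tested.

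Without cluster 5, Fos and Egr1 were still over 4-fold higher in Ob than in Mid_Ob, and Atf3, Jund and Ier2 came under 1.5-fold in this comparison (log2 ratios 0.49, 0.25 and 0.42). In clusters 4 and 7 of Ob, Fos stood at 29.8 CPM, which was 4.34 (3.69 to 5.12) times Mid_Ob and 5.81 (4.54 to 7.53) times Ctrl. Egr1 stood at 23.1 CPM, 4.25 (3.54 to 5.13) times Mid_Ob and 11.7 (7.93 to 17.9) times Ctrl. Macrophage markers were lower in these 2 clusters than in the adipocyte-like clusters of either other library. Malat1 was higher in them, at 66287 and 82973 CPM in clusters 4 and 7, against 51214 in Mid_Ob and 32047 in Ctrl. The part of macrophage transcripts, Malat1 or free RNA in these ratios was not tested. Atf3 was 1.40 (1.12 to 1.77) times Mid_Ob, Jun 0.933 (0.819 to 1.06) and Jund 1.19 (1.05 to 1.34). Fosb stood at 0.944 CPM there, 0.182 (0.113 to 0.282) times Mid_Ob, and Nr4a1 at 4.99 CPM, 0.348 (0.282 to 0.426) times. The count of genes higher without cluster 5 was 3 for Ob against Mid_Ob and 4 for Ob against Ctrl, where Atf3 (0.28) and Klf6 came under 1.5-fold and Fosb under the minimum of UMIs. The shares of all genes given for adipocyte-like clusters include cluster 5, and none is given without it, so these counts have no background. Without cluster 4, the log2 ratio of Fosb for Ob over Mid_Ob was -0.56, short of 1.5-fold.

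Clusters 4 and 7 of Ob differed from each other most in Egr1, among genes with at least 50 UMIs in the pair. It reached 35.7 CPM in cluster 7 and 17.8 in cluster 4, a ratio of 2.0 (1.70 to 2.36), while Fos differed by 1.27 (1.09 to 1.48) and Atf3 by 0.951 (0.676 to 1.32). Fosb was 2.79 (1.15 to 6.87) times as high in cluster 7, from 13 and 11 UMIs.

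**Figure D3:**
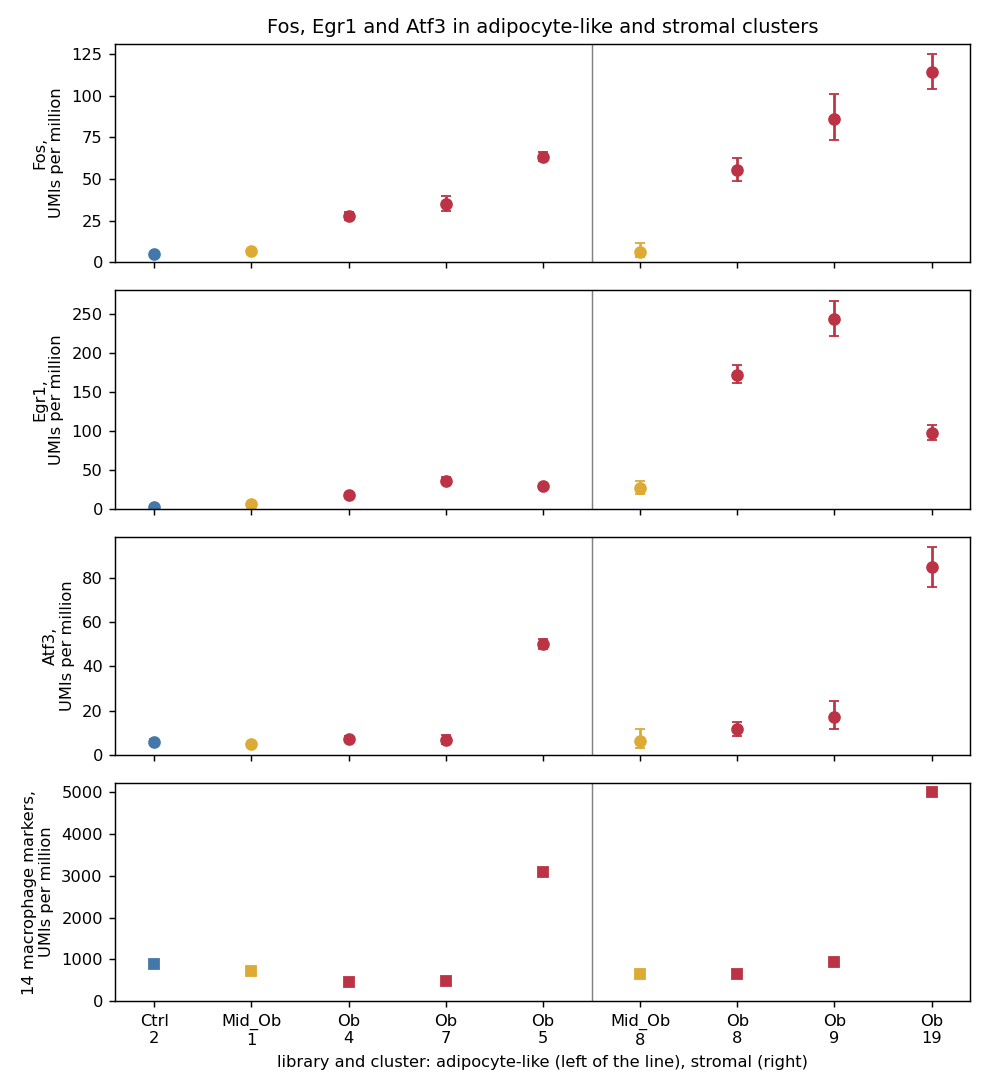
Fos, Egr1 and Atf3 in adipocyte-like clusters (left of the line) and stromal clusters (right), with the sum of 14 macrophage markers below, all in CPM; bars are exact Poisson 95% intervals. Atf3 is high in clusters 5 and 19 of Ob, which also have the highest macrophage sums (3099 and 4996), while Fos and Egr1 are higher in clusters 4, 7 and 8 of Ob than in Mid_Ob, and the macrophage sums of these 3 clusters stay between 469 and 655.

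Within macrophage-like clusters the stages were closer together. Of Mid_Ob against Ctrl, 9 genes had 50 UMIs, of which 2 were higher (8.71% of 11970 genes) and 2 lower (14.8%). Of Ob against Mid_Ob, 5 were higher (13.1% of 13756 genes) and 1 lower (18.4%), and of Ob against Ctrl, 5 were higher (13.7% of 14249 genes) and 1 lower (24.1%). The median log2 ratio for Ob over Ctrl was 0.72, against -0.08 over all genes. Malat1 stood at 26300.0, 28450.2 and 48769 CPM in Ctrl, Mid_Ob and Ob and the red blood cell list at 92.1, 27.3 and 317 CPM, and the part of either in the ratios was not tested.

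Atf3 and Fos were concentrated in this class in every library. The clusters held 8.85%, 6.15% and 19.6% of all UMIs in Ctrl, Mid_Ob and Ob, but 59.7%, 44.0% and 49.9% of the UMIs of Atf3 and 50.3%, 26.2% and 36.2% of those of Fos. In Mid_Ob, Atf3 was 12 (10.1 to 14.2) times as high in macrophage-like cluster 4 as in all other clusters. Egr1 went the other way in Ob, with 9.10% of its UMIs in the class and 0.411 (0.370 to 0.456) times the level of the other clusters.

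Between stages, Fos stood at 59.2, 38.3 and 145 CPM and Atf3 at 85.4, 71.0 and 169 CPM in Ctrl, Mid_Ob and Ob. Ob over Mid_Ob was 3.79 (3.19 to 4.54) for Fos and 2.38 (2.10 to 2.72) for Atf3. Jun stood at 36.8, 22.0 and 50.5 CPM, lower in Mid_Ob than in Ctrl at 0.597 (0.451 to 0.783). Egr1 stood at 5.23, 14.9 and 18.2 CPM and Ier2 at 7.96, 16.1 and 21.8 CPM, so most of their difference lay in the first step. Nr4a1 stood at 18.4, 24.8 and 12.1 CPM, and Ob was 0.487 (0.381 to 0.627) times Mid_Ob. Fosb showed 5.23, 4.79 and 5.26 CPM, with 1.01 (0.648 to 1.62) for Ob over Ctrl.

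Atf3 and Fos differed more between the 9 macrophage-like clusters than between the stages of the class. Gpnmb, a membrane glycoprotein of lipid-laden macrophages, ran from 57.9 CPM in cluster 20 to 3190.1 CPM in cluster 2 of Ob. Atf3 had the same order over the 6 Ob clusters, at 26.3, 26.8, 56.1, 114, 214 and 271 CPM in clusters 20, 11, 14, 3, 1 and 2 (Spearman's rho 1.0). Fos stood at 46.2, 66.6, 71.5, 116, 196 and 191 CPM in the same clusters (rho 0.94), and Jun at 23.4, 37.9, 32.9, 42.8, 54.2 and 66.3 CPM (rho 0.94). Fosb was highest at the other end, with 14.6 CPM in cluster 20 and 4.91 CPM in cluster 2 (rho -0.77), and for Egr1 rho was -0.14. The clusters of a library share its depth and its free RNA, and they had been formed on these same nuclei.

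Cluster 20 had the most Cd163, a marker of resident macrophages, at 1180.4 CPM, and cluster 2 the least, at 9.53 CPM. The level in cluster 2 was 10.3 (7.65 to 14.1) times that in cluster 20 for Atf3, 4.14 (3.30 to 5.26) times for Fos and 2.83 (2.05 to 4.02) times for Jun. The macrophage markers summed to 8998 CPM in cluster 2 and to 16394 CPM in cluster 20. In Ctrl, too, the cluster with more Gpnmb had more Fos and Atf3. Cluster 11, with 1461 CPM of Gpnmb, held 95.9 CPM of Fos and 122 CPM of Atf3, against 26.0 and 52.3 CPM in cluster 9, with 459 CPM of Gpnmb. The ratios were 3.69 (2.79 to 4.95) and 2.33 (1.88 to 2.89). Cd163 was also higher in cluster 11 of Ctrl, at 549 against 312 CPM, unlike in the Gpnmb-rich clusters of Ob. Fosb was 3.48 (1.34 to 10.7) times as high in cluster 11 as in cluster 9, from 19 and 6 UMIs. Over all 9 clusters rho with Gpnmb was 0.93 for Atf3 and 0.65 for Fos.

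**Figure D4:**
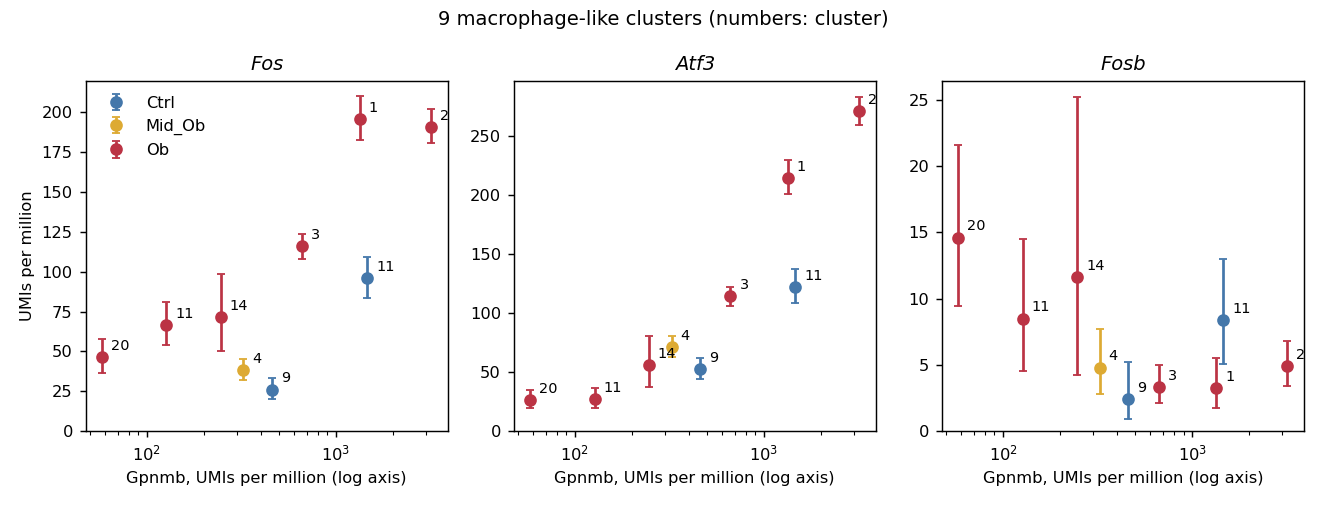
Fos, Atf3 and Fosb against Gpnmb in the 9 macrophage-like clusters, in CPM with a log axis for Gpnmb; numbers name clusters, colours libraries, and bars are exact Poisson 95% intervals. Atf3 and Fos are highest in clusters 1 and 2 of Ob and in cluster 11 of Ctrl within their libraries, while Fosb is highest in cluster 20 of Ob.

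The choice of clusters decided some values between stages. The cluster of Mid_Ob had 324 CPM of Gpnmb, below both clusters of Ctrl and above cluster 14 of Ob. In the clusters of Ob with most Cd163, 11 and 20, Atf3 was 0.374 (0.289 to 0.479) times Mid_Ob, at 26.5 against 71.0 CPM, while Fos was 1.46 (1.16 to 1.83) times. Without cluster 11 of Ctrl, the log2 ratio of Fos for Mid_Ob over Ctrl was 0.56, against -0.63 with it, and that of Jun was -0.03, against -0.75 with it. For Ob over Ctrl, Atf3 came under 1.5-fold without cluster 2 of Ob (0.49) or cluster 9 of Ctrl (0.47), and Nr4a1 did so without clusters 2, 3, 11 or 20 of Ob in turn (-0.57 to -0.53) and without cluster 9 of Ctrl (-0.08).

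Mesothelial-like clusters, from the lining of the fat, had the most genes called higher in Ob than in Ctrl of the 3 classes. All 10 genes were higher in Ob than in Ctrl, where 15.3% of 12134 genes were higher and 18.1% lower; 9 were so without either of the 2 clusters of Ctrl, Jund or Klf6 then coming under 1.5-fold. Of Mid_Ob against Ctrl, 8 genes had 50 UMIs, of which 5 were higher (8.06% of 11973 genes) and none lower (12.3%). Of Ob against Mid_Ob, 7 were higher (13.3% of 10311 genes) and none lower (9.58%). The median log2 ratio for Ob over Ctrl was 2.17, against -0.06 over all genes. The red blood cell list stood at 55.8, 47.1 and 1037 CPM in Ctrl, Mid_Ob and Ob, and the macrophage markers at 1093, 1044 and 2103 CPM. Malat1 stood at 24144, 33519.9 and 40251 CPM. The part of these transcripts in the ratios was not tested.

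Fosb gave the widest ratio of the 10 genes between stages. It stood at 0.891, 12 and 42.7 CPM in Ctrl, Mid_Ob and Ob, from 5, 28 and 118 UMIs, and Ob was 47.9 (19.9 to 150.1) times Ctrl. Fos stood at 9.09, 27.8 and 90.0 CPM and Atf3 at 5.88, 29.1 and 58.6 CPM, each near 10-fold higher in Ob than in Ctrl, at 9.90 (7.30 to 13.7) and 9.96 (6.81 to 15). Both were already higher in Mid_Ob than in Ctrl, by 3.06 (2.09 to 4.5) and 4.95 (3.22 to 7.74) times. Egr1 stood at 8.2, 16.3 and 75.6 CPM.

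Nr4a1 had a like level in Ob and Mid_Ob in mesothelial-like nuclei. It stood at 17.8, 56.5 and 56.8 CPM, with 3.17 (2.42 to 4.15) for Mid_Ob over Ctrl and 1.01 (0.792 to 1.28) for Ob over Mid_Ob. Jund stood at 73.1, 62.0 and 112 CPM, and Klf6 at 117, 142 and 177 CPM. The mesothelial-like cluster of Ob, number 12, had the highest Fosb and Nr4a1 of the library, 10.3 (8.33 to 12.6) and 5.58 (4.69 to 6.60) times all its other clusters. Cluster 6 of Mid_Ob likewise had the highest Fosb and Nr4a1 of that library. The 2 clusters of Ctrl, 3 and 5, had ratios whose intervals held 1 for 9 genes, and Ier2 stood at 1.98 and 5.77 CPM in them.

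**Figure D5:**
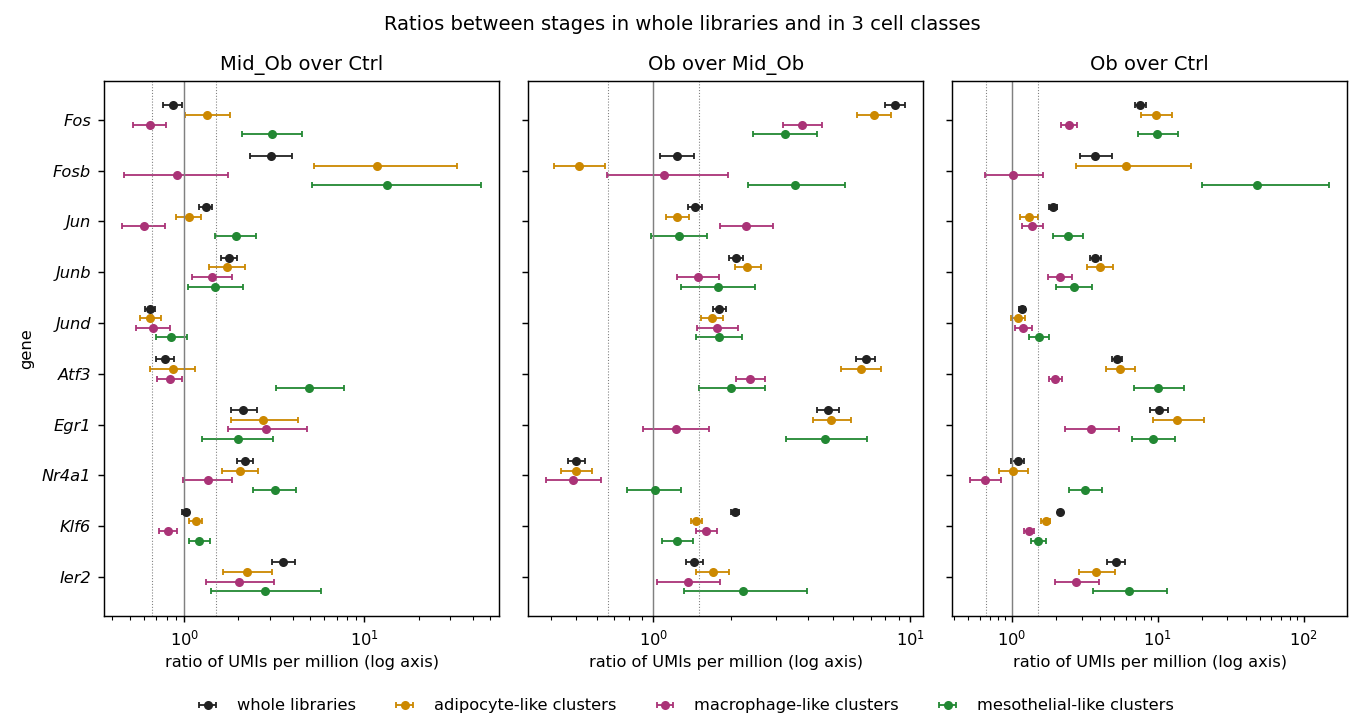
Ratios of CPM between stages for each gene, on log axes, in whole libraries and in 3 cell classes; bars are conditional binomial 95% intervals that cover counting error only, the solid line marks 1 and dotted lines 1.5-fold. Fosb of mesothelial-like clusters reaches 47.9 for Ob over Ctrl, and Nr4a1 lies near 0.5 for Ob over Mid_Ob in all but the mesothelial-like clusters.

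Fibroblast or progenitor-like clusters could be named in Mid_Ob (cluster 8) and Ob (clusters 8 and 19), and only these stages are compared. The class sat in unlike clusters: that of Mid_Ob was led by Sema3e, Adamts16 and Pi16, cluster 8 of Ob by Fbn2, Col8a1 and Galnt17 and cluster 19 by Nox4, Fndc1 and Galnt17, while Sema3e was a leading gene of the unnamed cluster 9 of Ob. Stage and kind of stromal cell therefore cannot be told apart here. Egr1 stood at 137 CPM in Ob and 26.0 CPM in Mid_Ob, a ratio of 5.28 (3.86 to 7.43). Fos stood at 82.9 CPM in Ob and 6.50 CPM in Mid_Ob, a ratio of 12.8 (6.90 to 26.7) from 737 and 10 UMIs. Junb was 2.06 (1.54 to 2.80) times and Ier2 3.35 (2.12 to 5.63) times as high in Ob, while Jun was at 1.0 (0.781 to 1.30).

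Cluster 19 carried 4996 CPM of macrophage markers, and cluster 8 carried 655 CPM, close to the 652 CPM of the Mid_Ob cluster. In cluster 8 of Ob alone, Egr1 stood at 172 CPM, 6.64 (4.83 to 9.36) times Mid_Ob, and Fos at 55.6 CPM, 8.57 (4.58 to 18.1) times. Atf3 stood at 11.6 CPM, 1.79 (0.904 to 3.94) times Mid_Ob, against 84.7 CPM in cluster 19. Egr1 was lower in cluster 19 than in cluster 8, at 97.2 CPM, so the 2 genes ran in opposite directions between these clusters. All 8 dividing cell markers were over 2-fold in clusters 8 and 19 of Ob, with sums of 269 and 262 CPM, and none was in cluster 8 of Mid_Ob, with 112 CPM.

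The highest Egr1 of all clusters was in cluster 9 of Ob, which was left unnamed although all 14 fibroblast or progenitor markers were over 2-fold in it. Egr1 stood at 244 CPM there, 6.84 (6.19 to 7.54) times the other clusters of Ob. Junb, at 109 CPM, and Ier2, at 88.3 CPM, also had their highest levels of the library in this cluster, 2.80 (2.42 to 3.22) and 4.34 (3.68 to 5.09) times the others. Atf3, at 17.2 CPM, was 0.256 (0.175 to 0.362) times the others. Against all macrophage-like clusters of Ob, the fibroblast or progenitor-like clusters held 7.55 (6.74 to 8.48) times the Egr1 and 0.271 (0.244 to 0.300) times the Atf3.

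Endothelial-like and lymphocyte-like clusters were small. Endothelial-like clusters were 9 in Mid_Ob, with Flt1 and Prox1 among its leading genes, and 16 and 21 in Ob, of which the first was led by genes that include Flt1 and the other by genes that include Prox1. Fos stood at 138 and 42.7 CPM in clusters 16 and 21 of Ob, from 46 and 18 UMIs, and at 84.6 CPM in both together, against 11.9 CPM in cluster 9 of Mid_Ob. Egr1 stood at 68.8 and 30.8 CPM in clusters 16 and 21 of Ob and at 47.6 CPM in both together, against 37.4 CPM in cluster 9 of Mid_Ob, where it was highest of that library. The Egr1 interval of cluster 21, 16.4 to 52.7 CPM from 13 UMIs, held the Mid_Ob level. That of cluster 16, 43.6 to 103 CPM from 23 UMIs, overlapped the Mid_Ob interval of 29.1 to 47.3 CPM. Fosb had no UMI in cluster 16 of Ob, where 3 UMIs would be 8.97 CPM. Cluster 16 also had 14 of 16 adipocyte and 11 of 14 fibroblast or progenitor markers over 2-fold, and macrophage markers summed to 3370.4 CPM in it. In lymphocyte-like clusters, Ier2 stood at 12.5, 14.3 and 49.6 CPM in Ctrl, Mid_Ob and Ob, from 8, 8 and 37 UMIs, under the minimum for a call in each pair, and Jun at 22.0, 12.5 and 6.70 CPM from 14, 7 and 5 UMIs.

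Jund was high in a further set of clusters. It stood at 229 and 235 CPM in clusters 13 and 18 of Ob, 113 CPM in cluster 5 of Mid_Ob and 136 CPM in cluster 1 of Ctrl. These are the 4 clusters with most mitochondrial UMIs (6.18%, 8.39%, 2.98% and 1.85%), and none of them was named. Junb and Ier2 were also highest of Mid_Ob in cluster 5, at 66.2 and 49.1 CPM. The part of mitochondrial RNA in these levels was not tested. Jund was 5.11 (4.72 to 5.53) times as high in clusters 13 and 18 as in the rest of Ob, and Fos 1.32 (1.17 to 1.48) times.

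Germ cell-like clusters of Ctrl, a cell type of the testis, held further peaks. Jund stood at 259 CPM in cluster 14, which was 12.1 (10.3 to 14.3) times the other germ cell-like clusters, and Fosb at 10.7 CPM from 14 UMIs. Nr4a1 stood at 82.3 CPM in cluster 12, from 38 UMIs, 11.1 (7.42 to 16.2) times the others. Cluster 13, the largest of the class, was the lowest cluster of Ctrl for all 10 genes. In the epididymal epithelium-like clusters of Mid_Ob, Ier2 and Nr4a1 were 2.79 (2.37 to 3.28) and 2.19 (1.92 to 2.50) times as high as in adipocyte-like nuclei, and Klf6 0.433 (0.393 to 0.476) times.

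The likeness of the genes to each other was read as Pearson's r of log2(CPM + 1) over 46 clusters, after subtracting the mean of each library. Fos and Atf3 were the most alike (0.86), followed by Fos and Klf6 (0.76) and by Junb and Ier2 (0.75). Egr1 and Atf3 were the least alike (0.03), and Fosb was most like Nr4a1 (0.51). Clusters of a library share depth and free RNA, so these values describe the libraries. Of 12916 genes with at least 200 UMIs in each library, and leaving out the 10, those most like their mean were Flna (0.85), which encodes an actin crosslinker, Vat1 (0.83), Itpripl2 (0.83), Dusp1 (0.82), a phosphatase of MAP kinases and itself an early response gene, and Prr13 (0.80).

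Other genes of the early response were higher in part. The list of 20 early feedback inhibitors includes genes that shut off the kinases or degrade the transcripts of the response. Of these 20, 13 were higher in Ob than in Ctrl and none was lower in whole libraries. Of all genes, 18.1% were higher and 43.5% lower. The median log2 ratio of the list was 0.76, against -0.35 over all genes. Of Ob against Mid_Ob, 12 were higher and 2, Dusp4 and Ier3, lower, where 17.5% of all genes were higher and 27.3% lower. Btg1, an antiproliferative gene, stood at 74.3, 44.5 and 124 CPM in Ctrl, Mid_Ob and Ob, and Zfp36l2, which encodes an RNA-binding protein that destabilises transcripts, at 71.4, 83.0 and 162 CPM. Zfp36l1, its paralog, stood at 109.8, 76.4 and 111 CPM. In adipocyte-like clusters 11 of the 20 were higher in Ob than in Ctrl (18.8% of all genes), and in macrophage-like clusters 10 (13.7%), with none lower in either (27.6% and 24.1%).

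Each of the other lists had genes called in both directions for Ob against Ctrl, and the counts stand beside 18.1% of all genes higher and 43.5% lower. Of 12 other immediate early transcription factors, 11 had 50 UMIs, of which 5 were higher in Ob than in Ctrl (Egr2, Klf10, Myc, Ier5 and Npas4) and 2 lower (Egr3 and Csrnp1), with a median of 0.11. Among the Krüppel-like zinc finger factors of this list, Klf2 stood at 49.2, 26.8 and 43.8 CPM in Ctrl, Mid_Ob and Ob, Klf4 at 43.7, 28.8 and 40.1 CPM, and Klf10 at 21.5, 36.4 and 44.7 CPM. Of 11 other AP-1 and Maf factors, 6 were higher and 1, Batf2, was lower, with a median of 0.86. Maf, at 221, 154 and 249 CPM in Ctrl, Mid_Ob and Ob, and the small Maf protein gene Mafg, at 75.0, 110.3 and 102 CPM, stayed within 1.5-fold of Ctrl in both later stages.

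Of 22 upstream kinases and factors, 4 were higher in Ob than in Ctrl (Elk3, Map2k1, Map3k8 and Rps6ka3) and 4 lower (Srf, Crem, Crtc2 and Atf2), with a median of 0.15 against -0.35 over all genes, so the share higher was near that of all genes. Rps6ka3, which encodes a kinase of the MAP kinase cascade, stood at 328, 592 and 751 CPM. Mrtfa and Mrtfb, which encode coactivators of the CArG box factor SRF, stood at 212, 190.4 and 286 CPM and at 184, 195 and 254 CPM. Of 11 heat shock genes, 3 were higher (Hspa8, Hspb1 and Hspe1) and 2 lower (Hspa1a and Hsp90aa1), with a median of 0.10. The chaperone genes Hsp90aa1, Hspa8 and Dnaja1 stood at 113, 40.1 and 46.5 CPM, at 58.2, 52.5 and 97.7 CPM, and at 75.7, 96.5 and 76.2 CPM.

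Some transcripts could be counted together with a neighbour. In GENCODE M21, Jun overlaps Junos, Junb overlaps Prdx2, Jund overlaps Gm11175 and Atf3 overlaps Gm24748, each on the other strand. Whether the counting used the strand is not given in the sources used here.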

How the data were processed

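Nuclei of pooled epididymal fat were sequenced on the 10x Genomics platform, aligned with Cell Ranger and its STAR aligner, and clustered per library by the authors. Versions, genome build and the use of strand: not given in the sources used here. The deposited signal values are mean counts per cluster, the summed UMIs of each gene divided by the summed size factor of the nuclei. The authors also deposited log2 fold changes of each cluster over the other nuclei of its library and adjusted p-values that take nuclei as replicates, and neither was used here. No nuclei were listed singly, so shared barcodes could not be counted. The study describes a filter on mitochondrial share and doublets. Clusters 13 and 18 of Ob held 6.18% and 8.39% mitochondrial UMIs. Whether doublets had been removed before deposit could not be read from the tables, and no removal of free RNA is described.

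Whole UMI counts were recovered from the step between low values, and 100.0% of 1248253 values were whole within 0.001. Counts were summed over clusters and divided by the UMIs of the same clusters (CPM), and ratios carry conditional binomial 95% intervals, levels exact Poisson ones. UMIs came from pooled mice, so intervals cover counting error only. With 1 library per stage there was no test. A gene was called over 1.5-fold with at least 50 UMIs in the pair. Clusters were named from at least 3 markers that exceeded 2-fold of the median among other clusters. Not every cluster that reached this was named, as with cluster 9 of Ob. These names are rebuilt and may differ from those of the study. Gene IDs were matched to GENCODE M21 (99.8%).

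The 10 genes, the lists and the markers were chosen with earlier results of these data known. All 10 genes are described, with the 3 genes of each list that had most UMIs and the 5 other genes most like the mean of the 10. A gene of these lists is not reported here. Clusters singled out, and genes named beside counts of 5 or fewer, were chosen after their values were seen. Alternatives were another scaling, minimums of 10 and 200 UMIs, a fold of 2, equal weight for clusters, and leaving out mitochondrial genes, clusters over 1.5% mitochondrial UMIs, testis and epididymis clusters or each cluster in turn. Scripts, tested on simulated counts, used scipy 1.17.1 and numpy 2.4.6 for statistics, pandas 2.3.3 for tables and matplotlib 3.10.9 for figures, under Python 3.11.15.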

Additional observations from a re-analysis of the deposited data

Results flagged for a closer look

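A pair of cell classes stood on opposite sides of 1.5-fold for 4 genes, and the difference between the classes was not tested. The log2 ratio of Fos for Mid_Ob over Ctrl was 1.61 in mesothelial-like and -0.63 in macrophage-like clusters. For Jun the same comparison gave 0.95 in mesothelial-like and -0.75 in macrophage-like clusters. Without cluster 11 of Ctrl, the macrophage-like values were 0.56 for Fos and -0.03 for Jun, so neither gene then stood on opposite sides. Fosb for Ob over Mid_Ob gave 1.83 in mesothelial-like clusters, against -0.96 in the adipocyte-like ones. Nr4a1 for Ob over Ctrl gave 1.67 in mesothelial-like and -0.61 in macrophage-like clusters, the macrophage-like value being -0.08 without cluster 9 of Ctrl. Without cluster 4 of Ob, the adipocyte-like value of Fosb was -0.56.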

How the results depend on the processing

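Of 697 values of single genes under the alternatives, 623 had the direction and the side of 1.5-fold given in the report, 73 came under 1.5-fold or under the minimum, and 1 changed sign: Fos in macrophage-like clusters for Mid_Ob over Ctrl, whose log2 ratio ran from -1.32 without cluster 9 of Ctrl to 0.56 without cluster 11. A fold of 2 accounted for 24 of these and a minimum of 200 UMIs for 14. In whole libraries, Mid_Ob against Ctrl had 0 lower genes under scaling by the median gene ratio, a fold of 2 and equal weight for clusters, and 2 with testis and epididymis clusters left out. Equal weight for clusters also gave 3 higher genes. Equal weight for the 4 classes named in all libraries, an alternative chosen after seeing the data, gave 0 lower genes for Mid_Ob against Ctrl and 0 for Ob against Mid_Ob, and a fold of 2 gave 0 for Ob against Mid_Ob as well. In adipocyte-like clusters, Mid_Ob against Ctrl had 0 lower genes under the other scaling and a fold of 2, and 3 higher at a minimum of 200. Ob against Mid_Ob had 0 lower genes at a fold of 2. Leaving out clusters in turn gave 3 to 7 higher and 1 to 2 lower genes for Ob against Mid_Ob, and 4 to 7 higher for Ob against Ctrl, with the lowest counts of higher genes without cluster 5 of Ob. In macrophage-like clusters, Mid_Ob against Ctrl had 0 higher genes at a minimum of 200 and 0 lower at a fold of 2, and leaving out clusters gave 2 to 4 higher genes (4 without cluster 9 of Ctrl) and 0 to 4 lower (0 without cluster 11 of Ctrl, 4 without cluster 9). Ob against Mid_Ob had 3 higher genes at a fold of 2. Ob against Ctrl had 0 lower genes under the other scaling, a fold of 2 and equal weight, and 0 to 1 when clusters were left out. In mesothelial-like clusters, Mid_Ob against Ctrl had 2 higher genes at a minimum of 200 and 3 at a fold of 2, and Ob against Mid_Ob had 4 at a minimum of 200. A higher fold or minimum calls fewer genes by construction, and for the other settings the cause was not tested. A lower minimum cannot lose a call. Leaving out mitochondrial genes, which made up 0.220% to 0.472% of whole libraries, could hardly change a ratio. The 623 of 697 therefore does not measure how stable the calls are. The shares of all genes given earlier belong to the main setting, and none is given here for the alternatives. No paired analysis was possible because each stage has 1 library. Small clusters limit depth: 3 UMIs in cluster 16 of Ob are 8.97 CPM.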
